A study of Mus musculus with 4 samples.

Results

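The genes examined here were 10 mouse genes of bone morphogenetic protein (BMP) signalling: the ligand genes Bmp2, Bmp4 and Bmp7, the inhibitory Smad gene Smad6, the target genes Id1, Id2, Id3 and Id4, and the homeobox target genes Msx1 and Msx2. They were taken by name out of 21523 protein-coding genes, and for each of them the deposited peaks of the homeodomain protein MIXL1 within 100 kb of the gene span were collected, together with the distance to the nearest peak. The series held 2 libraries of chromatin precipitated with an anti-FLAG antibody and 2 libraries of input chromatin. All 4 came from mouse epiblast stem cells (EpiSC), cultured pluripotent cells of the post-implantation epiblast, that carried a doxycycline-inducible FLAG-tagged Mixl1. These cells were kept over irradiated embryonic feeder fibroblasts in medium holding Activin A at 20 ng/mL plus bFGF at 10 ng/mL, and turned in serum into embryoid bodies of 2 days, with 1 µg/mL doxycycline during the final 24 h. The input libraries carried the same allele and received the same doxycycline, and the promoter behind the transgene, its level against endogenous Mixl1, the number of cell lines and the origin of the source embryos are not stated in the labels.

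BMP ligands are secreted dimers that bind serine/threonine kinase receptors. The receptors phosphorylate SMAD1, SMAD5 and SMAD9, which enter the nucleus with SMAD4 and switch on target genes. Among the best known targets are the Id genes, whose helix-loop-helix proteins lack a DNA-binding region and block other helix-loop-helix factors, the Msx genes, which encode homeodomain repressors, and Smad6, whose product feeds back to inhibit the pathway. In the mouse gastrula BMP4 from extraembryonic ectoderm is needed for the primitive streak and its posterior mesoderm, and MIXL1 is a paired-type homeodomain protein of that streak.

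A single list of 9598 peaks stood for all 4 libraries, and 9403 of its peaks lay on the 20 assembled chromosomes that carried any. It gave positions only, without height, score or p-value. No value below therefore has a replicate error, no peak could be compared between the 2 FLAG libraries, the depth of each library is unknown, and no test of a difference between conditions could be made. A peak list holds no expression values, so the labelled cell type was not checked against marker genes. Peak density differed between chromosomes, with 13.2 peaks per Mb on chromosome 12, where Id2 lies, against 3.19 to 4.06 per Mb on the chromosomes of the other 9 genes.

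Sequence under the peaks was at hand for 3 of them, where a 300-base promoter window of a neighbouring noncoding gene in the RefSeq table (GRCm38.p6, the assembly of mm10) overlapped the peak. They are shown because they are the parts of FLAG-MIXL1 peaks within 100 kb of Bmp7, Id2 and Msx1 that can be read base by base. Capitals mark the homeodomain core TAAT or its complement ATTA. The Bmp7 stretch (chr2:172934097-172934266, minus strand, the start of Gm40010 inside the Bmp7 span) makes up 39.1% of its peak. The Id2 stretch (chr12:25129018-25129223, plus strand, the start of Gm17746) makes up 16.8% of the widest Id2 peak, which lies 32.9 kb upstream of Id2. The Msx1 stretch (chr5:37893658-37893821, plus strand, the start of Gm20052) makes up 46.6% of a peak 69.1 kb upstream of Msx1.
Bmp7 peak: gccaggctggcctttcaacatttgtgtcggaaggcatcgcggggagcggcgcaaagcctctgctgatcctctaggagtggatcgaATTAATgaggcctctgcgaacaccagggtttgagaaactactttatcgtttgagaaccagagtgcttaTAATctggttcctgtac
Id2 peak: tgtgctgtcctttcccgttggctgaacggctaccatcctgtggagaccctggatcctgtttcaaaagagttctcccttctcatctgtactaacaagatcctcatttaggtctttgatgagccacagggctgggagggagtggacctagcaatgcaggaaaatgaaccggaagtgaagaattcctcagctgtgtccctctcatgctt
Msx1 peak: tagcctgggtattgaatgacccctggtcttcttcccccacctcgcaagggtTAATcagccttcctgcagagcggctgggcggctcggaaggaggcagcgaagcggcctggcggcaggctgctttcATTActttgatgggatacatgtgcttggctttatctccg
The Bmp7 stretch held 3 matches to the core, 2 of which overlap in the run ATTAAT. The Msx1 stretch held 2 and the Id2 stretch held 0. None of the 3 stretches held the paired dimer sites TAATNNNATTA or TAATNNATTA, which were searched on both strands. The core alone is common, since 58.0% of the 32851 promoter windows in the table held it, against 0.487% for TAATNNNATTA and 0.39% for TAATNNATTA. These windows are 300 bases long, and the stretches are shorter, at 170 (Bmp7), 206 (Id2) and 164 bases (Msx1). The rest of these peaks, and the other 25 peaks near the 10 genes, had no sequence in the table.

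All 10 genes had at least 1 MIXL1 peak within 100 kb, against a background of 52.8% of protein-coding genes (50.6% of those no longer than 75 kb, a length that all 10 keep under), and 28 peaks in all lay in their windows. Msx1 had 8 peaks, Id4 had 4, Bmp7, Id1 and Id2 had 3 each, Id3 and Msx2 had 2 each, and Bmp2, Bmp4 and Smad6 had 1 each. The median was 2.5 peaks per gene, against 1 for all protein-coding genes, and 7 of the 10 had 2 or more, against 26.7%. No peak was shared between the windows, and for 25 of the 28 peaks the nearest protein-coding gene was the member itself. Msx1 supplied 8 of these 25, and the matching share for other genes was not computed. The 10 genes were chosen with their peaks already known in part, so this count describes them and is no evidence about the pathway.

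**Figure D1:**
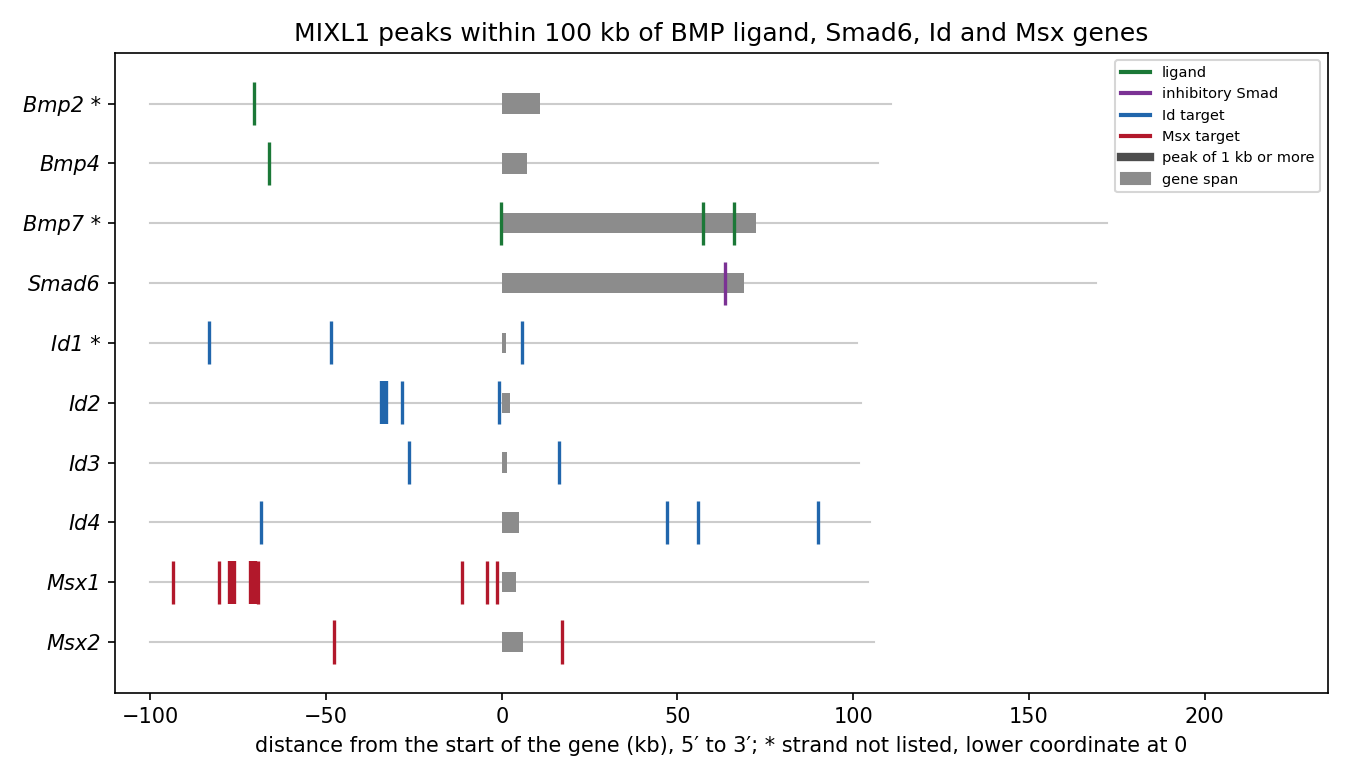
Map of the 28 MIXL1 peaks (vertical bars, coloured by the role of the gene, thick where the peak is 1 kb or wider) within 100 kb of the 10 gene spans (grey boxes), with distance from the gene's start in kb on the x axis. Genes run 5′ to 3′, except that Bmp2, Bmp7 and Id1 (asterisk) are drawn by ascending coordinate. All 8 peaks of Msx1 and all 3 of Id2 lie on the upstream side.

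**Figure D2:**
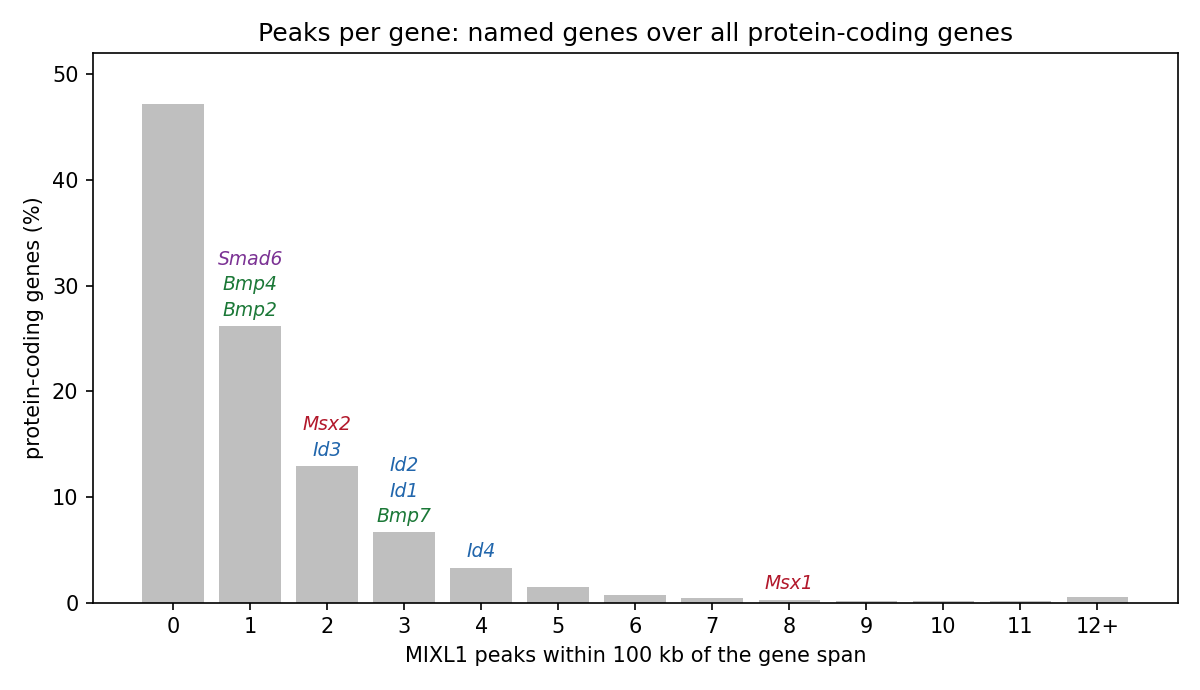
Percentage of the 21523 protein-coding genes (y axis, grey bars) by number of MIXL1 peaks within 100 kb (x axis), with the 10 genes written above the bar of their own count. None stands above the bar at 0, and Msx1 stands at 8 peaks, a count that 1.3% of genes reach or exceed.

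The ligand genes differed among themselves. Bmp7, which encodes a ligand with broad roles in kidney, eye and skeleton (chromosome 2, 172868012 to 172940321), had 3 peaks, 2 of them inside its span of 72.3 kb and 1 at 0.047 kb beyond the lower-coordinate end of the span. These lay at 172924993 to 172925652 and 172933832 to 172934266 inside the gene, and at 172867469 to 172867965 just outside it, with widths of 660, 435 and 497 bp. Bmp2 and Bmp4 had no peak inside the gene. Exons and introns were not resolved, because the gene table gives spans only.

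Bmp2, a ligand gene needed for heart and amnion development (chromosome 2, 133552159 to 133562896), had 1 peak 70.2 kb away on the lower-coordinate side, at 133481530 to 133481987. Bmp4, the ligand gene needed for mesoderm formation (chromosome 14, 46383525 to 46390669), had 1 peak 66.0 kb upstream, at 46456707 to 46457232. Neither had a peak within 50 kb, where 37.5% of protein-coding genes had at least 1. For nearness to a peak, 44.4% of protein-coding genes were as close as Bmp2 or closer and 43.1% as close as Bmp4 or closer, so both stood near the middle of all genes. Of the 10 genes these 2 had the greatest distances to a peak. Within 1000 kb Bmp2 had 4 peaks and Bmp4 had 11, against a median of 8 for protein-coding genes.

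Smad6, the inhibitory Smad gene (chromosome 9, 63953076 to 64022085), had 1 peak, and it lay inside the gene 63.5 kb downstream of the listed start, at 63958321 to 63958568. It was 248 bp wide, and 97.9% of all peaks were as wide or wider. A peak inside the span occurred in 12.6% of protein-coding genes. The promoter of Smad6 was one of 70 windows in the table, 0.213%, that held the Smad palindrome GTCTAGAC. The stretch is shown because so few windows held this motif, with the palindrome in capitals (chr9:64022045-64022074, minus strand). The palindrome runs across the listed start. No MIXL1 peak overlapped this window.
Smad6 promoter stretch: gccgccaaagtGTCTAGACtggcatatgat

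The Id genes held 12 of the 28 peaks. Id2 (chromosome 12, 25093799 to 25096092) had the peak closest to a start among the 7 genes with a listed start, at 25096618 to 25096976, 0.526 kb upstream. Its 2 other peaks lay 27.9 and 32.9 kb upstream, at 25123960 to 25124850 and 25129018 to 25130244, and were 891 and 1227 bp wide. All 3 lay on the upstream side. A peak within 1 kb of a start was found for 3.16% of the 17274 protein-coding genes with a listed start and for 7.31% of the 588 on chromosome 12.

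Id2 was also set beside the other genes of its chromosome. Over all protein-coding genes 13.7% had 3 or more peaks within 100 kb, but on chromosome 12 this was 60.9% of 678 genes, and the median there was 3, the count of Id2 itself. Measured from the gene span, 34.7% of the genes of chromosome 12 were as close to a peak as Id2 or closer, against 13.2% of all protein-coding genes. Around Id2 there were 14.8 peaks per Mb (95% exact Poisson interval 3.06 to 43.3), against 13.2 per Mb for the chromosome. Within 500 kb Id2 had 25 peaks, against a median of 17 for genes of chromosome 12 and of 4 for all protein-coding genes.

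The Id2 promoter is shown because the nearest peak lay just beyond it. These are the 250 bases before the start (chr12:25096093-25096342, minus strand), with the BMP-responsive Smad site GGCGCC in capitals, a site that 11.9% of promoter windows held.
Id2 promoter: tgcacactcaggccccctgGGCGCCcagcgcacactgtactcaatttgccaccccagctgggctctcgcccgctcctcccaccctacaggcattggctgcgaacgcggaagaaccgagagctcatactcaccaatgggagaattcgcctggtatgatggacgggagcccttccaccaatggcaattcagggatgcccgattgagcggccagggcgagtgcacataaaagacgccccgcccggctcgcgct
These bases held 1 GGCGCC, 0 matches to TAAT and neither dimer site, and the MIXL1 peak did not reach into them. Id4 was the other Id gene with GGCGCC in its listed promoter (chr13:48260956-48260985, plus strand), and Id3 had none of the motifs searched. The listed promoters of Bmp4, Smad6, Msx1 and Msx2 did not hold GGCGCC either.
Id4 promoter stretch: ctcgggttgcccGGCGCCccgccctcgcca

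Id4 (chromosome 13, 48261116 to 48266028) had 4 peaks, more than any other Id gene, and all lay at a distance. One lay 68.3 kb upstream, at 48192519 to 48192813, inside the noncoding gene A330033J07Rik. The other 3 lay 41.8, 50.6 and 85.0 kb downstream, at 48307833 to 48308235, 48316654 to 48317049 and 48351002 to 48351462. Id4 was the nearest protein-coding gene to all 4. A count of 4 or more was reached by 7.1% of protein-coding genes. The density around Id4 was 19.5 peaks per Mb (95% exact Poisson interval 5.32 to 49.98), above the 3.63 per Mb of chromosome 13.

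Id1 (chromosome 2, 152736251 to 152737410) had 3 peaks. The nearest lay 4.39 kb beyond the higher-coordinate end of the gene, at 152741801 to 152742054, and was 254 bp wide. The other 2 were nearer to H13, which encodes signal peptide peptidase, than to Id1. Of these, the peak at 152687429 to 152687792 lay inside H13 and 48.5 kb from Id1, and that at 152652718 to 152653079 lay 16.3 kb from H13 and 83.2 kb from Id1. Only 1 of the 3 peaks in the Id1 window was thus nearest to Id1 among protein-coding genes.

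Id3 (chromosome 4, 136143822 to 136145392) had 2 peaks, 1 on each side. The upstream peak at 136117254 to 136117493 lay 26.3 kb away and was 240 bp wide, and no peak in the list was narrower. The downstream peak at 136159800 to 136160291 lay 14.4 kb from Id3 but 11.98 kb from E2f2, the gene of a cell cycle transcription factor. The 4 Id genes thus had their nearest peaks at 0.526 kb (Id2), 4.39 kb (Id1), 14.4 kb (Id3) and 41.8 kb (Id4), against a median of 89.3 kb for protein-coding genes. For Id2 the genes of chromosome 12 are the closer comparison, and 34.7% of them were as close to a peak or closer.

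Msx1 (chromosome 5, 37820491 to 37824585), a homeobox gene of limb, tooth and craniofacial development, had the most peaks of the 10 genes. All 8 lay upstream and Msx1 was the nearest protein-coding gene to each. They fell into 2 groups parted by 57.5 kb without a peak. The near group had 3 peaks at 37825811 to 37826164, 37828657 to 37829082 and 37835746 to 37836197, which are 1.23, 4.07 and 11.2 kb from the gene, and all 3 lay in the span of the noncoding gene Gm33993.

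The far group of Msx1 had 5 peaks within 24.7 kb, between 69.1 and 93.5 kb upstream. It began at 37893658 to 37894009, the peak whose sequence is printed above, and went on with 37894522 to 37896068, 37900559 to 37902283, 37904838 to 37905143 and 37918075 to 37918373. The peaks at 37894522 and 37900559 were 1547 and 1725 bp wide, and 3.98% and 2.44% of all peaks were as wide or wider. With the 1227 bp peak of Id2 these were the 3 peaks of 1 kb or more near the 10 genes, 10.7% of their peaks against 12.5% of the whole list. The first 2 of the far group overlapped the noncoding gene Gm20052.

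A count of 8 or more peaks within 100 kb was reached by 1.3% of all protein-coding genes and by 1.45% of the 1245 on chromosome 5. The density around Msx1 was 39.2 peaks per Mb (95% exact Poisson interval 16.9 to 77.2), against 3.34 per Mb on chromosome 5. The count rose little farther out, to 11 peaks within 200 kb, 13 within 500 kb and 15 within 1000 kb. The 1-Mb window that holds Msx1 had 11 peaks, short of the 20 or more used to define a dense window.

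Msx2 (chromosome 13, 53466881 to 53472780), a homeobox gene of skull and skin appendage development, had 2 peaks. They lay 11.1 kb downstream, at 53455454 to 53455768, and 47.6 kb upstream, at 53520370 to 53520771. The related genes Msx1 and Msx2 thus had 8 and 2 peaks, and within 10 kb Msx1 had 2 and Msx2 had 0. At 500 kb they were closer, with 13 peaks for Msx1 and 10 for Msx2.
Msx2 promoter stretch: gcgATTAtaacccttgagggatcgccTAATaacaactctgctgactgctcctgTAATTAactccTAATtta
This stretch of the Msx2 promoter (chr13:53472950-53473020, minus strand) is shown because it held 5 matches to TAAT or its complement, in capitals, 2 of them overlapping in the run TAATTA, although no MIXL1 peak overlapped that promoter. The promoters of Msx1 and Bmp4 held 1 match each, and those of Id2, Id3, Id4 and Smad6 held 0. Letters that match are a description of the sequence and not evidence of binding.

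**Figure D3:**
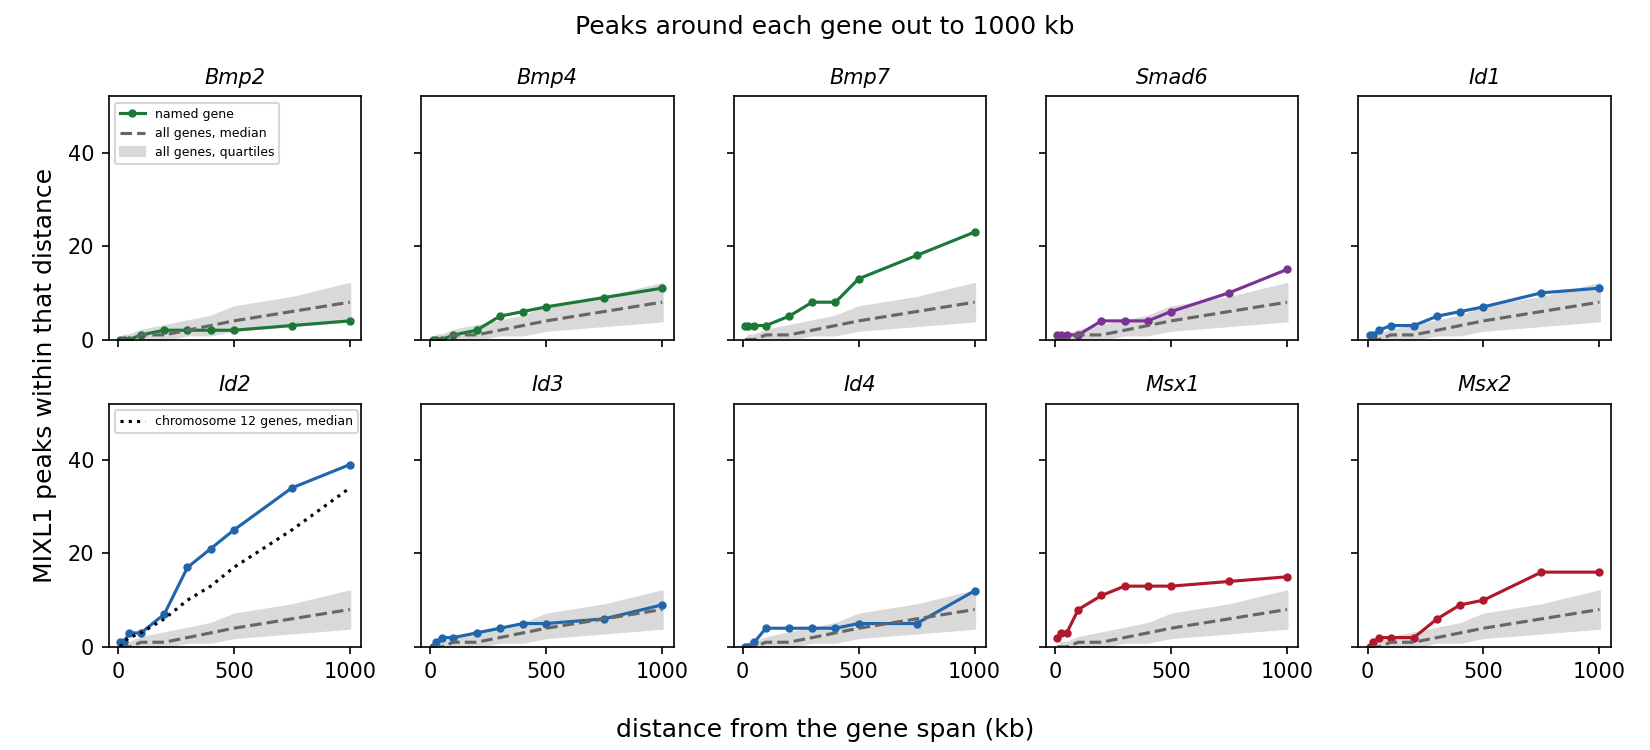
Number of MIXL1 peaks (y axis) within increasing distance of each gene span in kb (x axis), coloured by role, with the median (dashed) and quartiles (shading) of all protein-coding genes and, for Id2, the median of chromosome 12 genes (dotted). Msx1 gains 8 of its 15 peaks within 100 kb. Id2 equals the chromosome 12 median at 100 kb, with 3 peaks, and runs above it at 500 kb with 25 against 17.

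No MIXL1 peak overlapped the promoter window, 250 bases before to 50 after the start, of any of the 7 genes that the promoter table held, which were Bmp4, Smad6, Id2, Id3, Id4, Msx1 and Msx2. Among all 32851 windows, 453 (1.38%) overlapped a peak. From a start, the nearest peak was 0.526 kb away for Id2, 1.23 kb for Msx1, 16.0 kb for Id3, 17.0 kb for Msx2, 46.7 kb for Id4, 63.5 kb for Smad6 and 66.0 kb for Bmp4. Only Id2 and Msx1 had a peak within 5 kb of the start, where 6.12% of protein-coding genes had at least 1. For these 7 genes 15 peaks lay upstream, 5 downstream and 1 inside a gene, and Msx1 supplied 8 of the upstream peaks.

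Measured from the gene span, 5 of the 10 genes had a peak within 5 kb or inside the gene, namely Bmp7, Smad6, Id1, Id2 and Msx1, against 16.3% of protein-coding genes. Within 10 kb the same 5 of 10 had a peak, against 19.1%. Within 50 kb it was 8 of 10, against 37.5%, and within 200 kb all 10, against 70.3%. The median distance to the nearest peak was 7.75 kb for the 10 genes, against 89.3 kb for all protein-coding genes. The peaks near the 10 genes had a median width of 402.5 bp, against 485 bp for the list, and 20 of the 28 were narrower than that median.

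**Figure D4:**
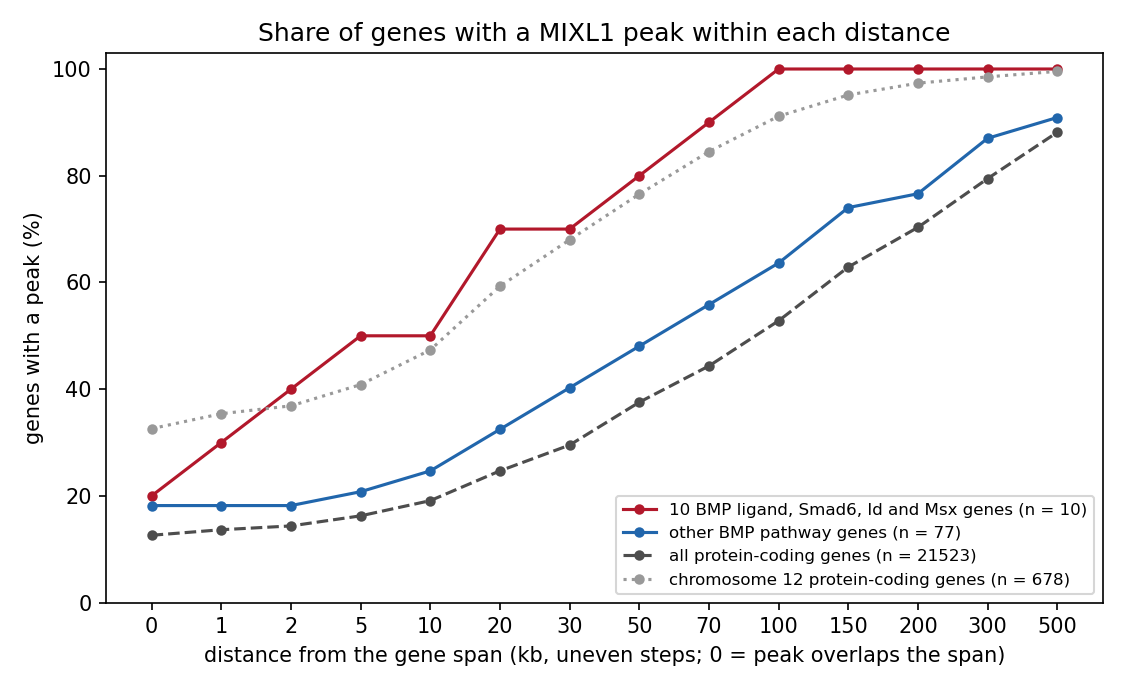
Percentage of genes with a MIXL1 peak (y axis) within each distance of the gene span in kb (x axis, uneven steps) for the 10 genes, for 77 other BMP pathway genes, for all protein-coding genes and for those of chromosome 12. At 100 kb the values are 10 of 10 genes, 63.6%, 52.8% and 91.2%.

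**Figure D5:**
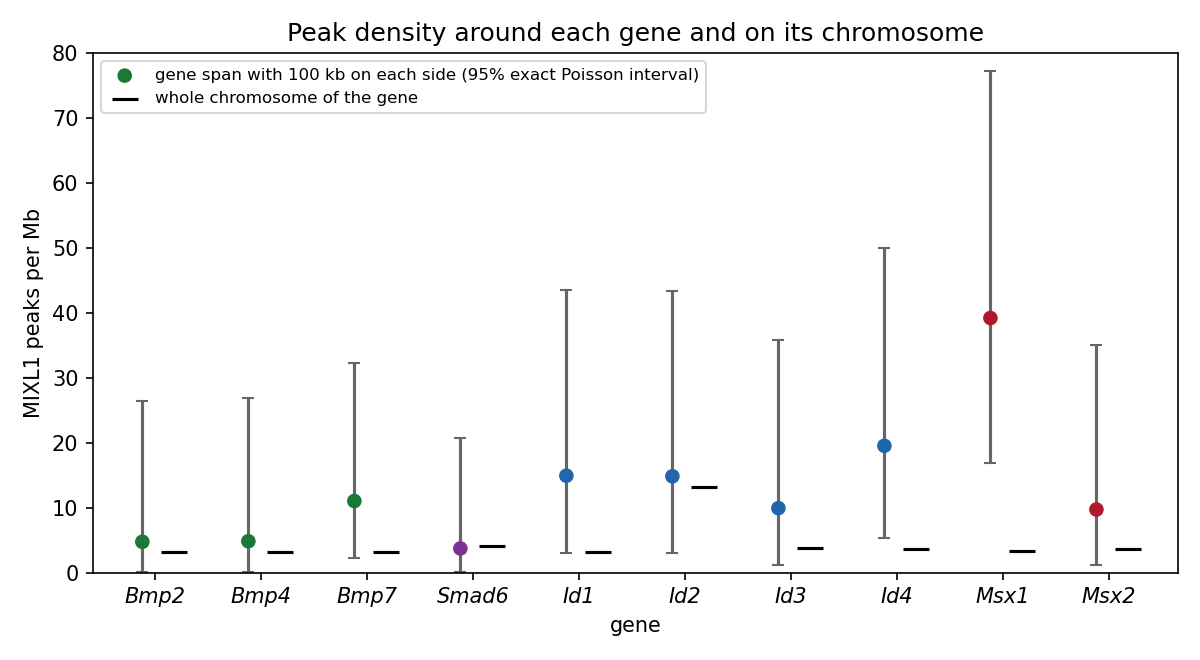
MIXL1 peaks per Mb (y axis) in the gene span with 100 kb on each side (points, 95% exact Poisson interval) and on the whole chromosome (dashes) for each of the 10 genes (x axis). The intervals of Id4 and Msx1 lie above their chromosomes, and those of the other 8 genes include theirs.

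Set beside their own chromosomes, 9 of the 10 windows were denser, against 45.6% of protein-coding gene windows, and that of Smad6 was not, with 3.72 peaks per Mb against 4.06 for chromosome 9. For short genes such as Bmp2 and Bmp4 a window with 1 peak already counted as denser, so this number largely restates that each gene had a peak within 100 kb. The Poisson interval lay above the chromosome's density for Id4 and Msx1, against 5.53% of protein-coding genes, and included it for the other 8. These intervals cover counting error only and treat peaks as independent, which clustered peaks are not. Over all 10 windows there were 28 peaks in 2.18 Mb, or 12.8 per Mb, where the densities of the chromosomes would give 9.53 peaks. Without Msx1, which holds 8 of the peaks, the mean was 2.22 peaks per gene, against 2.8 with it and 1.17 for all protein-coding genes.

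Of 77 other genes of BMP signalling, 49 (63.6%) had a peak within 100 kb, against 52.8% of protein-coding genes, and their median was 1 peak, the same as that of all genes. Among the other ligand genes 6 of 13 had a peak, led by Bmp6 with 5 and Gdf7, on chromosome 12, with 4. Among receptors and co-receptors it was 8 of 12, led by the type I receptor genes Acvr1 with 5 and Acvrl1 with 4. Of the receptor genes Bmpr1a, Bmpr1b and Bmpr2, named here after their values were seen, Bmpr1b had 1 peak, at 25.5 kb, and the nearest peaks of Bmpr1a and Bmpr2 lay at 299 and 241 kb.

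Among the other Smad genes 4 of 5 had a peak, with 4 at Smad1, the gene of a BMP effector, and 1 inside each of Smad4, the common partner, and Smad7, an inhibitory relative of Smad6 that tied with Smad4. Extracellular inhibitors and modulators gave 12 of 21 (57.1%), near the share of all genes. The highest counts were 3 at the antagonist gene Nog and 2 at Bmp1, the gene of a protease that cuts the antagonist chordin. Grem1 and Nbl1 tied with Bmp1 at 2 peaks each, with their nearest peaks farther away. Intracellular and membrane regulators gave 7 of 11 (63.6%). The highest counts there were 4 peaks each at Ppm1a, a phosphatase gene on chromosome 12, and Skil, the gene of a Smad corepressor. Further targets gave 12 of 15, led by the transcription factor genes Runx2 and Tbx2 with 4 each. Longer genes such as Runx2 have longer windows, and the counts of the 77 genes were not adjusted for gene length. No gene of the 77 reached the 8 peaks of Msx1, a count that 1.3% of all protein-coding genes reached or exceeded.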

How the data were processed

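Chromatin was immunoprecipitated with anti-FLAG M2 antibody from doxycycline-treated EpiSC embryoid bodies (2 libraries) and sequenced beside input (2 libraries). The build was mm10 and the tools named were MACS2, Bowtie2, SAMtools and CASAVA 1.8.2, per the submitters' processing notes. The authors deposited 1 list of peak positions without score, height, fold or p-value. The sources used here state neither the threshold nor how input and replicates entered. Depth per library is unknown.

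Peaks on the 20 assembled chromosomes with a peak were set against the RefSeq gene table of GRCm38.p6 (spans only), without the 340 genes that start in the first 3 Mb. A peak counted for a gene when at least 1 base lay within 100 kb of its span. Chromosome length ran from 3 Mb to the last gene end. Starts and strands came from the RefSeq promoter table, which held 7 of the 10 genes; Id1, Bmp2 and Bmp7 were not listed. No protein table was used, so the planned comparison of Id and Msx proteins was not made. Shares of all protein-coding genes are descriptions, without tests. Counting was checked on simulated peaks for 400 genes and equalled brute force in 400. The 10 genes and the pathway list were chosen with earlier results of these data known. All 10 genes are described, with 2 genes of each pathway role that had the most peaks (ties by distance) and any protein-coding gene nearer to a peak. Windows of 10, 50 and 200 kb, peak centres, wider peaks and the omission of dense windows or chromosomes were tried. Computations ran in Python 3.11.15 (pandas 2.3.3, numpy 2.4.6, scipy 1.17.1), plots in matplotlib 3.10.9. Positions are 1-based.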

Additional observations from a re-analysis of the deposited data

How the results depend on the processing

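The number of the 10 genes with a peak fell to 5 within 10 kb and, within 100 kb, to 5 when only the wider 50% of the peaks were kept, which dropped Bmp2, Smad6, Id1, Id4 and Msx2. It was 8 within 50 kb, without Bmp2 and Bmp4, 9 with peaks of 350 bp or more (43.6% of protein-coding genes), without Smad6, and 10 within 200 kb, by peak centre, without dense windows (50.8%) and within 100 kb of the middle of each gene (47.8%), the last an alternative chosen after the data were seen. Without chromosomes 12 and X it was 9 of 9 genes (53.5%). The 28 peaks became 8 within 10 kb, 17 within 50 kb, 43 within 200 kb and 8 with the wider 50%. The 11366 of 21523 protein-coding genes with a peak became 4112 within 10 kb and 6938 with the wider 50% (32.2% of genes). When genes of every type were counted, 24166 of 49214 had a peak. The 49 of 77 pathway genes with a peak became 19 within 10 kb (24.7%, against 19.1% of protein-coding genes). With the wider 50% they became 28 of 77, against 32.2% of protein-coding genes. The median distance of 7.75 kb became 8.32 kb from the nearer gene end to the peak centre and 97.4 kb with the wider 50%. The last value has no counterpart in the 89.3 kb median of all protein-coding genes, which is from the full list. With the wider 50% the median of all protein-coding genes was not computed. Since 32.2% of them then had a peak within 100 kb, it lies beyond 100 kb. With the wider 50% Msx1 had 2 peaks, Id2 had 2 and Id4 had 0. Why the narrower peaks hold most of those near these genes was not tested. No paired analysis was possible because a single list without library columns was deposited, and for the same reason no replicate could be left out. Width is a poor stand-in for a score, and depth per library is unknown.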

Other observations

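Of the 25 peaks outside the spans of the 10 genes, 11 overlapped another annotated gene, and 10 of these 11 were in long noncoding RNA genes. Of the 24 that lay outside every protein-coding gene, 10 (41.7%) overlapped another gene, against 27.2% of such peaks in the whole list, a difference that was not tested. Msx1 accounted for 5, with 3 in Gm33993 and 2 in Gm20052. The others lay in 1700030C14Rik (Id1), Gm17746 (Id2), A330033J07Rik (Id4), Gm2762 and Gm34022 (both Msx2), and the protein-coding exception was H13 (Id1). The function of these noncoding genes is not given in the files, and whether their promoters or the named genes respond to MIXL1 was not analysed here.

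In the promoter table as a whole, the dimer site TAATNNNATTA occurred in 9 of the 453 windows under a peak (1.99%), against 0.487% of all windows. TAATNNATTA occurred in 3 of them (0.662%), against 0.39%, and TAAT in 72.6% of those under a peak, against 58.0% of all. GGCGCC occurred in 8.17% of windows under a peak, against 11.9% of all windows. Base composition was not matched, windows of alternative starts overlap, and no test was made.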
